A study of Mus musculus with 16 samples.

Results

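8 microRNAs (miRNAs) of low to middle abundance that are highest in airway cultures on the day they are exposed to air were followed through differentiation: mmu-miR-326-3p, mmu-miR-504-5p, mmu-miR-1981-5p, mmu-miR-702-3p, mmu-miR-700-5p, mmu-miR-8112, mmu-miR-193b-3p and mmu-miR-342-3p (the prefix for mouse is left out below). They were chosen by name and on their measured levels, highest at day 0 and lower afterwards, and all 8 were found among 1264 small RNA rows, 677 of them miRNAs. Their lower level after day 0 is therefore a description with no test. The comparison of genotypes was not used in the choice and was tested.

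The cells were mouse tracheal epithelial cells grown as primary cultures on porous membranes. At an air-liquid interface such a culture turns from a layer of basal cells into an epithelium with multiciliated cells. The animals were wild type (WT) or lacked p73 in the whole body (KO). They were harvested at days 0, 4, 7 and 14 after air exposure, with 2 libraries (replicates 2 and 3) for each genotype and day and 16 in all. Every culture had been placed at the air-liquid interface, day 0 included, and the labels call the replicates of a group independent. The p73 protein belongs with p53 to one family of transcription factors, and the study asked what it does in the formation of multiciliated cells. Its own transcript is not a small RNA, so the loss of p73 could not be checked here.

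A miRNA is cut from a hairpin in a longer transcript. One arm, or strand, of the hairpin usually outlasts the other and guides the silencing complex to messenger RNAs that pair with its seed, bases 2 to 8. Many miRNA hairpins lie in introns of protein-coding genes and are made along with the host transcript. A few, called mirtrons, fill a short intron and are released by splicing itself.

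The mature sequences are shown with the seed in capitals, 5′ to 3′, because the seed decides which miRNAs can share targets and because base composition differs between these 8 and other miRNAs. They were read from RefSeq for build GRCm38.p6, and all 8 were matched. miR-330-5p and miR-193a-3p are added because each has the seed of one of the 8.
miR-326-3p: cCUCUGGGcccuuccuccagu
miR-330-5p: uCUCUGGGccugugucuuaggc
miR-193b-3p: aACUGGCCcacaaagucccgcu
miR-193a-3p: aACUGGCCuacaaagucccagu
miR-504-5p: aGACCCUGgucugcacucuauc
miR-1981-5p: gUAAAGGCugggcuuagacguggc
miR-702-3p: uGCCCACCcuuuaccccgcucc
miR-700-5p: uAAGGCUCcuuccugugcuugc
miR-8112: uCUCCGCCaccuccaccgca
miR-342-3p: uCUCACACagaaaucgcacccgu

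No seed was shared among the 8. The sequences are 20 to 24 bases long and rich in G and C, from 52.2% in miR-342-3p to 70.0% in miR-8112. Their median was 58.7%, and 8 of 8 lay above the median of 50.0% over the 178 miRNAs with a sequence, out of 196 measured at day 0 (90.8%).

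The miRNAs come from separate places in the genome, mostly inside genes. Positions are on mm10, the build named by the submitters, and match those in the deposited table for 8 of 8. miR-326-3p (chr7:99552328-99552348, plus strand) lies in an intron of Arrb1, which encodes beta-arrestin 1. miR-504-5p (chrX:59097705-59097726, minus strand) lies in an intron of Fgf13, which encodes a protein that binds sodium channels. miR-342-3p (chr12:108658680-108658702, plus strand) lies in an intron of Evl, a gene for an actin regulator.

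Another 3 miRNAs lie against an exon of their host. miR-702-3p (chr5:136991520-136991541, plus strand) ends 2 bases before an exon of Plod3, a gene for a collagen lysyl hydroxylase. miR-700-5p (chr4:135416601-135416622, minus strand) ends 2 bases before an annotated exon of Rcan3, a gene for a regulator of calcineurin. miR-1981-5p (chr1:184822465-184822488, minus strand) begins at the first base of an intron of Marc2, which encodes a mitochondrial reductase, and the next exon begins 58 bases after its end. In all, 6 of the 8 lie in introns on the strand of the host gene, against 101 of the 196 miRNA rows measured at day 0 (51.5%).

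The hairpin of miR-1981 (chr1:184822407-184822488, minus strand, 82 bases) is shown because both of its arms were measured and had different levels over the days. The capitals mark the 5p arm, which begins at base 1, and then the 3p arm.
miR-1981 hairpin: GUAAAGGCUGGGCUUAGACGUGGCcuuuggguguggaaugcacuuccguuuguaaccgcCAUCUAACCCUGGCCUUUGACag

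The remaining pair lie elsewhere. miR-193b-3p (chr16:13449570-13449591, plus strand) lies outside protein-coding genes, with the annotated RNA Gm15738 on the opposite strand. In mice its hairpin is made together with a miR-365 hairpin and is known for promoting brown fat. miR-8112 (chr6:71271745-71271764, plus strand) lies in a non-coding exon of Krcc1 and has an exact copy in 2 Krcc1 transcripts. Reads of miR-8112 and of broken Krcc1 messenger RNA cannot be told apart.

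The libraries held 197497 to 1777270 reads, recovered from the deposited normalised values. Of these, 1 of the 8 miRNAs took 9 to 163 reads in a library at day 0 (median 51.5) and 1 to 69 at day 4 (median 25). All 8 were listed at days 0 and 4, 7 of them at day 7 and 4 at day 14. The deposited table holds no value for rows of low mean at the later days, where the lowest mean listed was 16.4 at day 7 and 14.97 at day 14. Which miRNAs can be followed to day 14 was thus decided by their level, and counts at later days cover only those listed. miR-92b-3p made up 1.11% to 2.3% of the summed values at day 0 and 47.3% to 55.1% at day 14. A share of the library and a normalised read count thus give different sizes of change. Levels below are normalised read counts, with each day moved by 1 factor so that all days lie on 1 scale.

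Of the 8, 4 were listed at every day. The first, miR-326-3p, is known in mice for promoting interleukin-17 T helper cells. In WT, miR-326-3p stood at 88.3 and 234.5 at day 0, 49.5 and 70.8 at day 4, 50.5 and 46.9 at day 7, and 51.5 and 49.7 at day 14 (replicate 2, then replicate 3). In KO, it stood at 103.7 and 147.5 at day 0, 48.9 and 56.3 at day 4, 30.6 and 23.7 at day 7, and 14.2 and 25 at day 14. Every later library was below every day 0 library of its genotype. In WT the level stayed between 46.9 and 70.8 from day 4 on, while in KO the day 7 libraries were below those of day 4. The mean was 161 ± 103 (SD, n = 2) at day 0 and 50.6 ± 1.3 at day 14 in WT, and 126 ± 31 and 19.6 ± 7.7 in KO. On the log2(value + 1) scale, day 14 was lower than day 0 by a difference of -1.49 in WT and -2.65 in KO.

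miR-504-5p, which in human cells is known to repress the p53 gene, had a similar course. In WT, it stood at 58.2 and 187.0 at day 0, 30.3 and 48.4 at day 4, 23.4 and 32.6 at day 7, and 20.7 and 29.1 at day 14. Its KO level was 53.2 and 126.2 at day 0, 33.3 and 33.3 at day 4, 27.2 and 21.6 at day 7, and 14.2 and 11.6 at day 14. The KO libraries were lower at each later day than at the day before it, with no overlap, whereas in WT the libraries of days 4 and 7 overlapped and so did those of days 7 and 14. The difference of day 14 from day 0 was -2.04 in WT and -2.59 in KO (log2).

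miR-702-3p, which is known as a mirtron, was low from day 4 on. The WT level was 48.2 and 113.6 at day 0, 21.2 and 29.8 at day 4, 27.6 and 30.6 at day 7, and 30.0 and 20.6 at day 14. The KO level was 71.5 and 90.0 at day 0, 21.3 and 33.3 at day 4, 24.7 and 10.8 at day 7, and 18 and 16.1 at day 14. After day 4 neighbouring days overlapped in both genotypes. The difference of day 14 from day 0 was -1.54 in WT and -2.17 in KO (log2).

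miR-1981-5p was the one of these 4 with a higher level in KO than in WT at the end of the course. WT cultures had 126.5 and 148.1 at day 0, 49.5 and 89.4 at day 4, 37.2 and 50.0 at day 7, and 47.6 and 39.4 at day 14. KO cultures had 82.0 and 131.7 at day 0, 48.2 and 60.9 at day 4, 64.7 and 58.8 at day 7, and 63.0 and 76.8 at day 14. The KO libraries of day 14 were all above the WT ones and just below those of KO day 0. The difference of day 14 from day 0 was -1.64 in WT and -0.57 in KO (log2). Without the factor that joins the days, KO day 14 overlapped KO day 0, and by library totals that leave out miR-92b-3p the KO difference was -0.01.

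**Figure D1:**
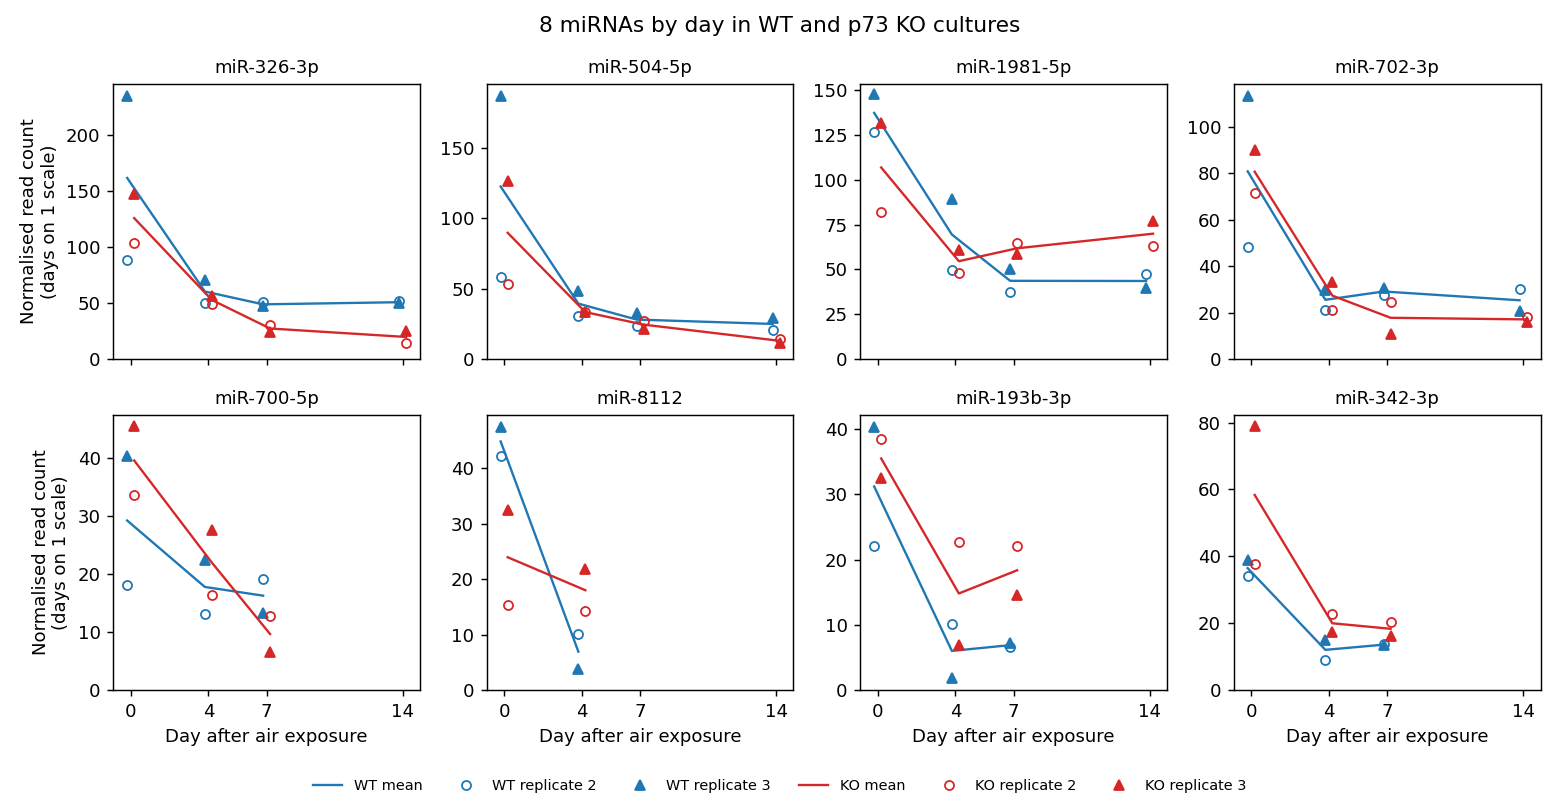
Normalised read count of each of the 8 miRNAs (vertical axis, linear from 0, days on 1 scale) against the day after air exposure (horizontal axis, drawn to scale) in WT (blue) and KO (red) cultures. Circles are replicate 2, triangles are replicate 3, and lines join the means of 2 libraries. Points are missing where the deposited table holds no value; the WT day 0 triangles of miR-326-3p (234.5) and miR-504-5p (187.0) stand far above their circles (88.3 and 58.2).

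The other 4 miRNAs were scarcer and were listed at days 0 and 4, and all but miR-8112 at day 7. miR-700-5p differed least from its day 0 level in WT. WT libraries held 18.1 and 40.3 at day 0, 13.1 and 22.4 at day 4, and 19.2 and 13.3 at day 7. KO libraries held 33.6 and 45.5 at day 0, 16.3 and 27.6 at day 4, and 12.8 and 6.47 at day 7. The WT days overlapped throughout, so in WT a lower level after day 0 was within the spread of the replicates. In KO each later day lay below the one before.

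miR-342-3p, whose host gene Evl is active in blood cells, was lower from day 4 on in both genotypes. In WT, it stood at 34.1 and 38.8 at day 0, 9.09 and 14.9 at day 4, and 13.8 and 13.3 at day 7. In KO, it stood at 37.8 and 78.9 at day 0, 22.7 and 17.2 at day 4, and 20.4 and 16.2 at day 7. The later KO libraries were all above the later WT libraries, and days 4 and 7 overlapped within each genotype.

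miR-193b-3p and miR-8112 had the lowest counts at day 4. In WT, miR-193b-3p stood at 22.1 and 40.3 at day 0, 10.1 and 1.87 at day 4, and 6.61 and 7.13 at day 7. In KO, it stood at 38.5 and 32.5 at day 0, 22.7 and 6.89 at day 4, and 22.1 and 14.6 at day 7. The WT day 4 values rest on 10 reads and 1 read, and the 95% Poisson interval of that 1 read is 0.03 to 5.6 reads, for counting error only.

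In WT, miR-8112 stood at 42.2 and 47.5 at day 0 and at 10.1 and 3.72 at day 4, from 21, 33, 10 and 2 reads. In KO, it stood at 15.4 and 32.5 at day 0 and at 14.2 and 21.8 at day 4, from 22, 35, 20 and 19 reads. The WT days were apart and the KO days overlapped. The difference of day 4 from day 0 was -2.66 in WT and -0.33 in KO (log2). The KO difference turned to 0.18 without KO day 0 replicate 3.

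A lower level was already seen at day 4. Both day 4 libraries were below both day 0 libraries for 7 of the 8 miRNAs in WT, the exception being miR-700-5p, and for 7 of the 8 in KO, the exception being miR-8112. By library totals that leave out miR-92b-3p the KO count was 5. Over the 312 rows with enough reads at both days, the same held for 21.8% in WT and 27.2% in KO, and for 6 of the 7 members among those rows in each genotype. The median log2 difference of day 4 from day 0 over the 7 members with enough reads was -1.42 in WT and -1.22 in KO. Over all 312 rows it was -0.09 and -0.07, with 57.1% and 54.2% of the rows lower. At day 14, the 4 members listed were below day 0 in both libraries in both genotypes, as were 28.7% of 279 rows in WT and 35.5% in KO. These values restate how the 8 were chosen and are no evidence for it.

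After day 4, WT had no member with 2 neighbouring days apart among those listed. In KO, miR-326-3p, miR-504-5p and miR-700-5p were lower at day 7 than at day 4 with no overlap, and miR-504-5p was lower again at day 14. Over all rows with enough reads, both day 7 libraries lay below both day 4 libraries for 12.7% in WT and 13.1% in KO (314 rows), and for 0 and 3 of the 6 members among them. Both day 14 libraries lay below both day 7 libraries for 22.5% in WT and 21.2% in KO (293 rows), and for 0 and 1 of the 4 members among them. In KO the later steps were a large part of the whole for miR-326-3p, which differed from day 0 by -1.22 at day 4 and -2.65 at day 14, and for miR-504-5p, by -1.28 and -2.59. Whether the steps after day 4 differ between the genotypes was not tested.

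The day 0 replicates differed in one direction for most of the 8. In WT, replicate 3 was above replicate 2 for 8 of 8, by a median log2 difference of 0.97, against 0.06 over the 342 rows tested at day 0, of which 53.2% were higher in replicate 3. In KO it was above for 7 of 8, by a median of 0.59 against -0.03. The widest gap was that of miR-504-5p in WT, 3.21-fold on the deposited scale, while miR-8112, miR-342-3p and miR-1981-5p had gaps of 0.17, 0.18 and 0.23 (log2). Without regard to direction, the median gap in WT was 0.97 for the 8 and 0.56 for all rows, whose upper quartile was 0.99, so gaps of this size were found in other rows too. At day 7 in KO the order was turned, with 0 of 7 higher in replicate 3 and a median of -0.36.

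The size of the difference between days in WT varied with the replicate kept. Without WT day 0 replicate 3, the difference of day 14 from day 0 was -0.79 for miR-326-3p, -1.21 for miR-504-5p and -0.93 for miR-702-3p. Without WT day 0 replicate 2, it was -2.19, -2.88 and -2.15. For miR-1981-5p the same values were -1.52 and -1.75. The direction was kept for each of these 4 miRNAs, and at day 4 for all 8, with miR-700-5p at -0.07 without replicate 3.

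Base composition moved with the gap between the day 0 replicates. Over 178 miRNAs, the log2 difference of WT day 0 replicate 3 from replicate 2 correlated with the percentage of G and C at r = 0.44 (Spearman rho = 0.50). These miRNAs share their libraries and are not independent, so the correlation is a description. The 76 other miRNAs with at least 52.2% of G and C, the lowest value among the 8, had a median gap of 0.26. The 8 had 0.98. In KO at day 0 the correlation was 0.15, and in KO at day 4 it was 0.49.

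For day 4 against day 0 the correlation with G and C was r = -0.22 (rho = -0.31) in WT and r = -0.03 (rho = -0.07) in KO. For day 7 against day 0 it was r = -0.23 (rho = -0.32) in WT. At day 4 the same 76 other miRNAs had a median difference of -0.33 in WT and -0.39 in KO, against -1.47 and -1.25 for the 8. The part of base composition in the levels of the 8 was not tested.

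**Figure D2:**
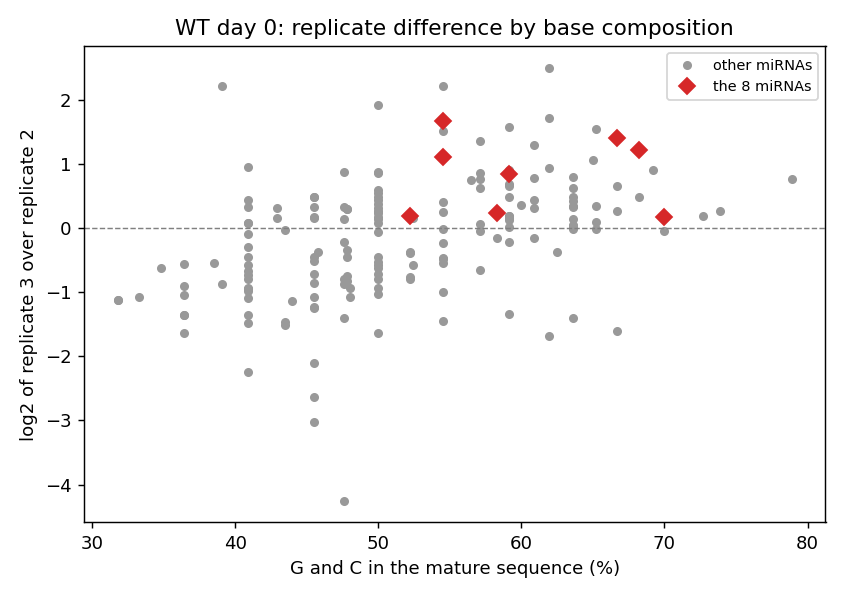
WT day 0 log2 difference of replicate 3 from replicate 2 (vertical axis) against the percentage of G and C (horizontal axis) for 178 miRNAs. Levels are normalised read counts on the scale that joins the days, plus 1, and G and C are those of the mature sequence. Grey points are other miRNAs and red diamonds are the 8 described here, of which 8 lie above 0 and to the right of the median composition of 50.0%; r over all points is 0.44.

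KO was then compared with WT on each day with limma on the log2(value + 1) scale, with p-values adjusted over all small RNAs tested. No member passed an adjusted p of 0.05 on any day, averaged over days, or in the test of whether the change from day 0 differs between genotypes. With 2 libraries per group the intervals are wide, so a missed threshold does not show that the genotypes act alike.

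At day 0, 0 of 8 members were called, and the background was 0% (0 of 342 rows, with 27 at an unadjusted p under 0.05 and 0 called by edgeR and by DESeq2). The estimates for KO over WT ran from -0.96 for miR-8112 (SE 0.56, limma adjusted p = 0.629) to 0.57 for miR-342-3p (SE 0.44, adjusted p = 0.721). The median was -0.05 for the members and 0.07 for all rows. Libraries of the genotypes did not overlap for 1 of the 8, miR-8112, and for 34.8% of the rows. Starting levels of the 2 genotypes were thus not told apart at this depth.

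At day 4, 0 of 7 members tested were called, against a background of 0.294% (1 of 340 rows, with 14 at an unadjusted p under 0.05 and 0 by edgeR and by DESeq2). miR-193b-3p had too few reads to be tested on this day. The estimates ran from -0.29 for miR-1981-5p (SE 0.35, limma adjusted p = 0.997) to 1.34 for miR-8112. In deposited values miR-8112 reached the minimum of 10 in the KO libraries only, so it entered the test through the group where it is higher, and its p is not read. Libraries of the genotypes did not overlap for 2 of the 7, miR-8112 and miR-342-3p, and for 24.4% of the rows.

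At day 7, 0 of 7 members listed were called, against a background of 0.623% (2 of 321 rows, with 16 at an unadjusted p under 0.05, 0 by edgeR and 3 by DESeq2). The estimates ran from -0.83 for miR-326-3p (SE 0.42, limma adjusted p = 0.756) to 1.3 for miR-193b-3p (SE 0.68). In deposited values miR-193b-3p reached the minimum of 10 in the KO libraries only, and its p is not read. Libraries of the genotypes did not overlap for 6 of the 7, all but miR-504-5p, and for 43.9% of the rows.

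At day 14, 0 of 4 members listed were called, against a background of 3.95% (12 of 304 rows, with 58 at an unadjusted p under 0.05, 54 by edgeR and 36 by DESeq2). miR-326-3p had the largest estimate, -1.38 (SE 0.42, 95% interval -2.29 to -0.47), with both KO libraries below both WT libraries. Its unadjusted limma p was 0.00546 and its adjusted p was 0.0928. edgeR on the recovered reads gave -1.32 with an adjusted p of 0.0352, and limma on the 4 libraries of day 14 alone gave an adjusted p of 0.043, so the call depends on the method. DESeq2 gave an adjusted p of 0.145, and in the authors' deposited table the log2 fold change was -1.19 with an adjusted p of 0.175.

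The other 3 members of day 14 missed the threshold by more. KO was at -0.89 for miR-504-5p (SE 0.51, limma adjusted p = 0.357) and -0.52 for miR-702-3p (SE 0.47, adjusted p = 0.557), with both KO libraries below both WT libraries for each. It was at 0.67 for miR-1981-5p (SE 0.35, adjusted p = 0.301), with both KO libraries above. Libraries of the genotypes did not overlap for 66.4% of the rows on this day. The median over the 4 was -0.71, and over all rows -0.01.

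Averaged over the 4 days, limma called 0 of 4 members, against a background of 2.57% (7 of 272 rows). Over all rows edgeR called 10 and DESeq2 13, and 46 had an unadjusted limma p under 0.05. The average was -0.65 for miR-326-3p (SE 0.21), with an unadjusted limma p of 0.00776 and an adjusted p of 0.125. Without WT day 0 replicate 2 it was at -0.83 and passed, with an adjusted p of 0.0149. The averages were -0.4 for miR-504-5p (adjusted p = 0.425), -0.28 for miR-702-3p (adjusted p = 0.551) and 0.12 for miR-1981-5p (adjusted p = 0.729). These averaged tests counted the 4 days of a replicate as independent. Replicate numbers pair libraries within KO, so the SE and p-values of the averages can be too small. A replicate block within genotype was not run for the averages.

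**Figure D3:**
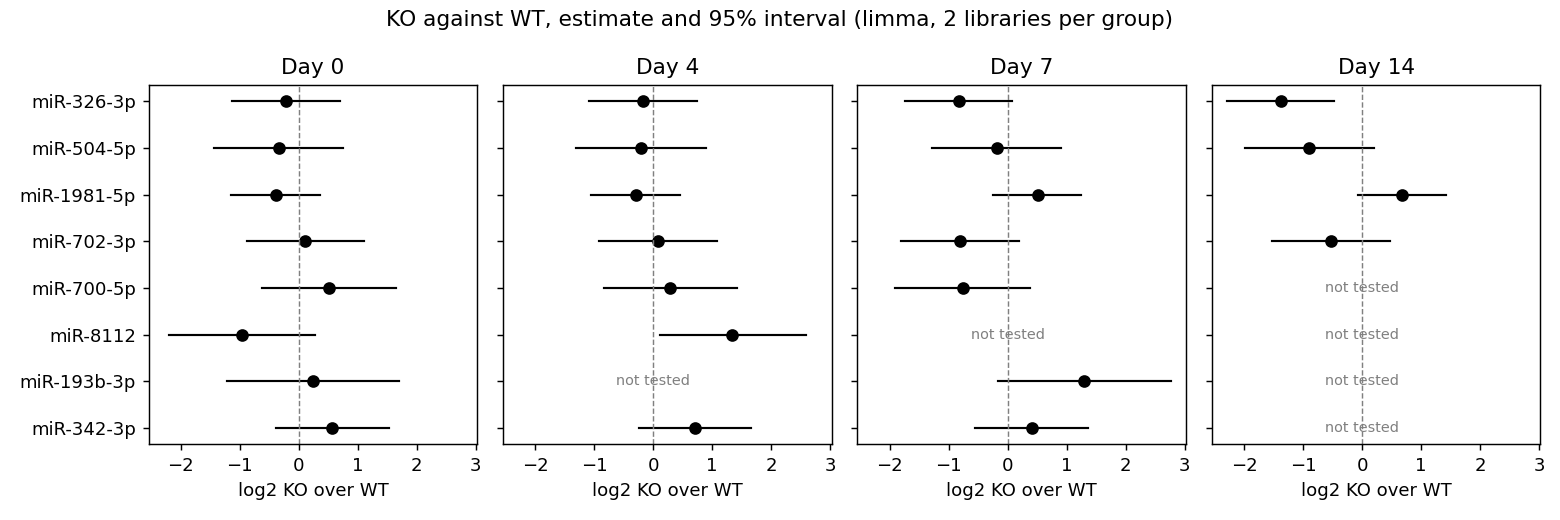
Estimated log2 difference of KO from WT (points, horizontal axis) with its 95% interval (lines) for each of the 8 miRNAs at days 0, 4, 7 and 14, from limma with 2 libraries per group. The interval leaves out 0 for miR-326-3p at day 14, which did not pass after adjustment over all rows, and for miR-8112 at day 4, which reached the minimum value in KO only (as miR-193b-3p did at day 7); miRNAs with too few reads or no value are marked as not tested.

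The last tests asked whether the change from day 0 differed between the genotypes. For day 4, limma called 0 of 7 members with a background of 0% (0 of 312 rows). Over all rows edgeR and DESeq2 called 0 too, and 4 had an unadjusted limma p under 0.05. The largest difference among the members was that of miR-8112, with the KO change 2.3 above the WT one (SE 0.79). It passed the minimum at day 4 through the KO libraries only, and its p is not read. The other 6 lay between -0.22 and 0.15, with 95% intervals that reach past 1 on both sides of 0 for 5 of them, so no difference was told apart.

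For day 7, 0 of 7 members were called with a background of 0% (0 of 297 rows, with 15 at an unadjusted p under 0.05 and 0 by edgeR and by DESeq2). The change was 0.9 higher in KO for miR-1981-5p and lower by a difference of -1.27 for miR-700-5p, each with a limma adjusted p of 0.662. For miR-193b-3p it was 1.06 higher in KO (SE 0.95). That miRNA passed the minimum at day 7 through the KO libraries only, and its p is not read. For day 14, limma called 0 of 4 members with a background of 0% (0 of 279 rows). Over all rows edgeR called 0 and DESeq2 14, and 52 had an unadjusted limma p under 0.05. The KO change of miR-1981-5p was 1.07 above the WT one (SE 0.49), with an unadjusted limma p of 0.0454 and an adjusted p of 0.268. Under the alternatives that difference ranged from 0.73 to 1.66. The tests of the change from day 0 did not use the pairing of libraries within KO, so their SE and p-values can be too large. With a replicate block within genotype, 0 members and 14 of all rows were called for day 14.

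miR-326-3p had a KO change to day 14 of -1.16 against the WT one (SE 0.59, limma adjusted p = 0.309). The same difference was -0.63 for miR-702-3p (adjusted p = 0.636) and -0.54 for miR-504-5p (adjusted p = 0.727). For miR-504-5p its sign turned to 0.29 without WT day 0 replicate 2, to 0.07 without KO day 0 replicate 3 and to 0.05 by library totals.

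Within the hairpin of miR-1981 the WT level of the 5p arm was lower at day 14 than at day 0 and that of the 3p arm overlapped. The 3p arm stood at 18.1 and 20.1 in WT at day 0 and at 20.7 and 17.1 at day 14, a difference of -0.02 (log2), while the 5p arm differed by -1.64. In KO the 3p arm stood at 28.7 and 20.4 at day 0 and at 16.7 and 10.7 at day 14, a difference of -0.81 with no overlap, and the 5p arm differed by -0.57. In reads, the 5p arm outnumbered the 3p arm 7.0 and 7.36 times in the WT libraries of day 0, and 2.3 times in both of day 14. In KO the ratio was 2.85 and 6.45 at day 0 and 3.77 and 7.17 at day 14. The WT days did not overlap and the KO days did. The 3p arm had 9 to 47 reads in a library, and the ratio was not tested.

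Of the other arms, those of miR-700, miR-342 and miR-504 were measured and scarce. miR-700-3p stood at 4.02 and 5.75 in WT and 9.11 and 10.2 in KO at day 0. At day 4 it stood at 5.05 and 1.87 in WT and at 10.6 and 11.5 in KO, so its KO level was not below day 0 as that of miR-700-5p was. miR-342-5p was at 0 to 6 reads in WT at day 0 and at 10 and 5 reads in KO. At day 4 miR-342-5p had 5 and 7 reads in WT and 5 and 2 in KO. Its level was then below that of day 0 in KO only. miR-504-3p had 1 or 2 reads in each library of day 0. The other arms of miR-326, miR-702 and miR-193b were not analysed here.

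miR-330-5p, the other miRNA with the seed of miR-326-3p, was not below its day 0 level at day 14 in WT. Its WT level was 14.1 and 27.3 at day 0 and 27.3 and 29.1 at day 14. Its KO level was 20.3 and 46.4 at day 0 and 11.6 and 20.5 at day 14. Within a library, miR-326-3p had 3.18 to 8.58 times the reads of miR-330-5p at day 0 and 1.22 to 1.89 times at day 14. The day 14 ratio was 1.89 and 1.71 in WT and 1.22 in both KO libraries, so miR-326-3p outnumbered miR-330-5p in every library of both days.

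miR-193a-3p, with the seed of miR-193b-3p, was at 0 or 1 read in every library of day 0. Of the miR-365 arms, miR-365-1-5p from the hairpin near miR-193b was also at 0 or 1 read, and miR-365-2-5p from chromosome 11 had 1 to 10 reads. The main miR-365 strand was not analysed here.

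**Figure D4:**
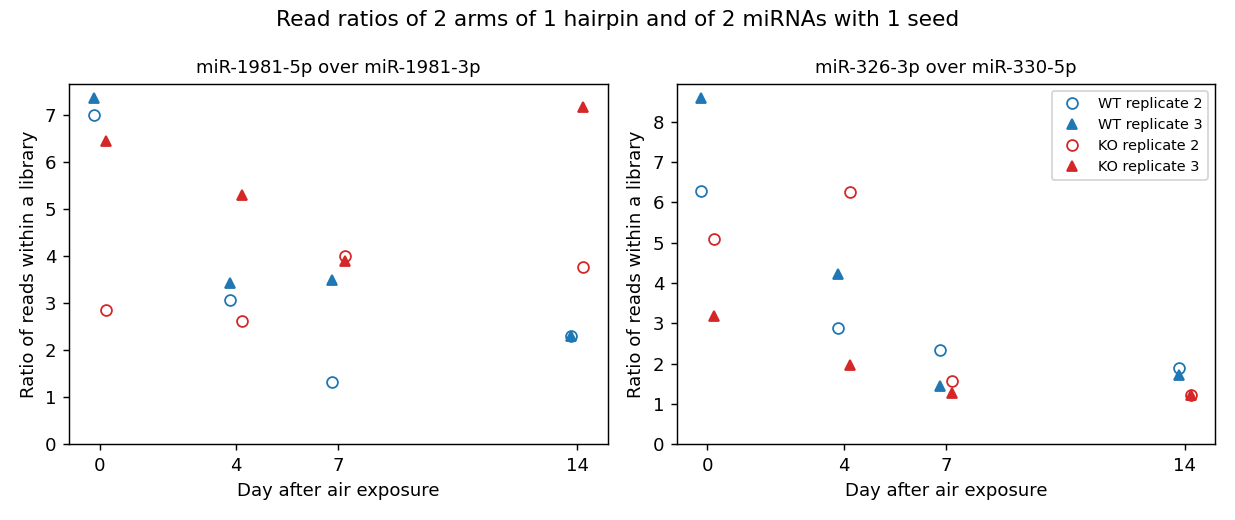
Ratio of reads within each library (vertical axis, linear from 0) against the day after air exposure (horizontal axis) for miR-1981-5p over miR-1981-3p (left) and for miR-326-3p over miR-330-5p, which has the same seed (right). Circles are replicate 2 and triangles replicate 3, WT in blue and KO in red; on the right the ratios narrow from 3.18 to 8.58 at day 0 to 1.22 to 1.89 at day 14.

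Among the members, the course over the 16 libraries was alike to different degrees. For the 4 miRNAs listed in every library, the correlation of log2 values was 0.93 between miR-326-3p and miR-504-5p, 0.91 between miR-326-3p and miR-702-3p, and 0.89 between miR-504-5p and miR-702-3p. With miR-1981-5p the other 3 had 0.61 to 0.72. All of these share the libraries and the choice of members, and they carry no test.

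The rows most like the mean profile of these 4 miRNAs, among 293 rows present in all 16 libraries, were miR-99b-3p (r = 0.92), miR-484 (r = 0.90), miR-15b-5p (r = 0.89), miR-151-3p (r = 0.87) and miR-8114 (r = 0.87). miR-99b-3p was the nearest. In WT it stood at 281.1 and 310.7 at day 0 and at 96.5 and 96.0 at day 14, and in KO at 323.0 and 360.0 at day 0 and at 77.2 and 79.5 at day 14. Its day 0 replicates were closer to each other than those of miR-326-3p. miR-484 and miR-151-3p were far more abundant, with means of 898.5 and 25538 over the 16 libraries.

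Sums of the markers of the culture's cells moved with the day, as the 8 miRNAs did. The summed level of the multiciliated markers, which are arms of the miR-449 and miR-34 families, was 1150 to 1410 at day 0 and 9590 to 15200 at day 14, with 6 of 7 arms listed on each of these days. Most of the higher sum was miR-449a-5p and miR-449c-5p. In WT the mean level of miR-34c-5p was 1006 at day 0 and 3527 at day 14, and that of miR-34b-3p was 146.9 and 352.6. In KO the mean level of miR-34c-5p was 1081 at day 0 and 1132 at day 14, and that of miR-34b-3p was 149.9 and 100.5. The sum of the basal and stratified markers, led by miR-205-5p, was 13600 to 24200 at day 0 (4 markers) and 7870 to 10300 at day 14 (3 markers listed). Both miR-205-5p and miR-31-5p were lower at day 14 in each genotype. The scarcer miR-203-3p was not, with a mean of 13.35 at day 0 and 18.55 at day 14 in WT. In KO its means were 11.19 and 12.29. In bulk samples fewer cells of a type and less RNA per cell cannot be told apart, so neither can be read from the lower level of the 8. At day 0 the basal sum was lower in replicate 3 than in replicate 2, at 13600 against 19600 in WT and 14700 against 24200 in KO, whereas the 8 miRNAs were mostly higher in replicate 3.

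Markers of other cell types were low at day 0 beside the basal and multiciliated sums. Not all were low beside the scarcer of the 8 miRNAs. The blood cell marker miR-155-5p had day 0 means of 46.09 in WT and 44.9 in KO, against 31.18 and 35.5 for miR-193b-3p. The 2 blood cell markers found, of 5 listed, summed to 36.0 to 60.2, most of it miR-155-5p. At day 14, 1 of them was listed, at 41.2 and 40.2 in KO and 50.2 and 56.6 in WT. The 5 of 7 fibroblast and smooth muscle markers summed to 16.1 to 35.9 at day 0, most of it miR-143-3p, with miR-145a-5p at 0 or 1 read. Both endothelial markers summed to 0 to 3.5, with miR-126a-3p at 0 in WT, and the striated muscle marker found, of 3 listed, to 0 to 5.61. The remaining markers were not analysed here. The part of any cell type in the level of the 8 miRNAs was not tested.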

How the data were processed

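Small RNA libraries were measured in 16 cultures. Per the labels' protocols, RNA came from a column kit and libraries from a TruSeq RNA kit. Build mm10 and DESeq2 are named in the submitters' processing notes; the aligner and counter were not given in the sources used here. Although the deposited values carry a heading of read counts, they are a normalised signal, which the authors made by dividing counts by 1 size factor per library within each day. Low values were whole multiples of 1 step per library (tolerance 0.0055, 100.0% of the low values tested), and reads were recovered from it, less certainly at days 7 and 14, where low rows are blank. The authors' deposited table of comparisons gives log2 fold changes of KO over WT with an adjusted p-value per day.

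Here, 5 predicted rows that repeat a named miRNA were removed from 1269, and every value column was mapped to a sample. For levels across days, 1 log2 shift was subtracted per day (-0.246, -0.178, 0.42 and 0.047 at days 0, 4, 7 and 14, from 287 rows). Genotypes were compared with limma 3.58.1 in R 4.3.3 on log2(deposited value + 1), fitting the 8 groups of 16 libraries together with a trended variance. Rows were tested where 2 or more of the 4 libraries of every day involved reached 10. Adjusted p-values are Benjamini-Hochberg over all rows tested. The procedure was tested on simulated data. edgeR 4.0.16 and DESeq2 1.42.0 on the recovered reads, other scalings, pseudocounts and filters, replicate blocks and leaving out each library were the alternatives; those for levels at day 4 were added after seeing the data. p-values measure the spread between the deposited libraries. Poisson intervals cover counting error only, since PCR copies were not marked by molecular identifiers.

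Replicate differences correlated at -0.31 to 0.11 between genotypes, 0.08 to 0.26 within WT and 0.3 to 0.47 within KO over 293 rows, so the numbers pair libraries within KO but not across genotypes. Replicates of a group correlated at 0.937 to 0.983 across rows, which are not independent, and within a group no library repeated the other. Libraries of different groups were not compared in this way.

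All 8 members were named, with the other arms of their hairpins, miRNAs encoded beside them or with their seed, and the 5 rows most like their mean profile. The members, lists and markers were chosen with earlier results of these data known.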

Additional observations from a re-analysis of the deposited data

How the results depend on the processing

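Of 48 fitted genotype differences of the members, 2 passed the threshold under any alternative, both of miR-326-3p. At day 14 the count of members called was 0 with limma and 1 with edgeR on recovered reads or with the 4 libraries of the day alone. Averaged over days it was 0, and 0 to 1 with 1 library left out; the 1 came without WT day 0 replicate 2. Adjusted p of miR-326-3p ranged from 0.0352 to 0.369 at day 14 (limma log2 -0.99 without KO day 14 replicate 2) and from 0.0149 to 0.264 averaged over days. Signs turned for miR-1981-5p at day 4 (-0.71 to 0.13 with 1 library left out), for the change of miR-504-5p to day 14 (-1.38 to 0.29 with 1 library left out, 0.05 by library totals) and for miR-8112 in KO at day 4 against day 0 (-0.85 to 0.18 with 1 library left out). Among the 27 other fitted differences, which were not all small, 19 changed sign under at least 1 alternative and 0 passed. The replicate block changed no member's call, with 0 called at day 14 (miR-326-3p adjusted p = 0.0636), and a block within genotype left 0 members called for the change to day 14 while 14 rows of the table passed against 0. Over the whole table, day 14 calls were 12 with limma, 54 with edgeR, 36 with DESeq2, 22 by library totals, 45 with the day alone and 0 to 7 with 1 library left out. Day 7 calls were 2, and 0 to 1 under 9 alternatives; averaged calls were 7, and 4 to 14; without WT day 0 replicate 2, 9 rows were called at day 0, 7 for the change to day 7 and 12 for that to day 14, against 0. Of the differences between days recomputed under the alternatives, 246 stayed within the replicate spread, 17 moved beyond it and 1 turned. The causes were not tested. With 1 to 163 reads for a member in a library, counting error is a large part of the spread of the scarcest ones.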
